A study of Bos taurus with 6 samples.

Results

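Closely spaced H3K4me3 regions were defined as autosomal regions called in all 3 replicates of bovine blastocysts whose edge lay 3000 bp or less from the edge of another such region. To find them, the peaks of the 3 replicate lists were pooled, peaks that overlapped or touched were joined into regions, and regions on chromosome X or without a peak in each list were set aside. Of the 16231 autosomal regions that remained, 2942 (18.1%, 95% Wilson interval 17.5 to 18.7%, which treats regions as independent although members come in groups) had a neighbour within the limit, and chaining them gave 1368 groups. The members were chosen by the measured positions of the peaks, so their spacing, scores and widths are given as descriptions and carry no test.

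The blastocysts were produced in vitro, collected on day 8 (192 h after IVF) as 3 groups of approximately 11 embryos, each with an H3K4me3 library made with 3 µg of antibody and its own input library. Each group was a pool of unsexed embryos that mixed early, expanded, hatching and hatched blastocysts, so that a region cannot be assigned to the inner cell mass or the trophectoderm, and all 3 replicates belong to a single condition without a treatment. The groups came from 2 IVF procedures, and which replicates share a procedure is not given in the sources used here, so the SDs over 3 replicates may hold fewer independent sources. ChIP-seq, in which fragments of crosslinked chromatin bound by an antibody are sequenced, gave 22404, 19076 and 22060 peaks in replicates 1, 2 and 3. The peak lists hold no reads, so it is not known how many reads a peak rests on, and where a list lacks a region, that region was simply not called.

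H3K4me3, trimethylation of lysine 4 of histone H3, is laid down by the SET1 and MLL methyltransferases and gathers on the nucleosomes around the start sites of active genes and on CpG islands. The start site itself is often free of nucleosomes, so the mark commonly lies on both sides of a gap, and divergent genes or alternative start sites can place further marked nucleosomes close by. In the early embryo the mark is known to be remodelled over the cleavage divisions. In these blastocysts, the authors placed only a minority of the peaks on gene promoter regions. Gene models of the build of the peak lists (UMD 3.1.1) were not used here, so neither start sites, genes nor the identity of the cells could be checked, and the regions are given by position (first base counted as 1).

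Most groups were simple pairs. Of the 1368 groups, 1211 held 2 regions, 121 held 3, 26 held 4, 9 held 5 and 1 held 8. The 157 groups with more than 2 regions held 520 of the 2942 regions. A pair spanned a median of 6135 bp from its first to its last base, and its regions lay a median of 3597 bp apart from middle to middle. The peaks inside closely spaced regions made up 13.9%, 16.9% and 14.8% of the autosomal peaks of replicates 1, 2 and 3, and covered 7.74, 6.40 and 6.68 Mb, respectively.

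Short gaps were the most frequent. The 1574 gaps between neighbouring members had a median of 979 bp and quartiles of 407 and 1868 bp, measured between the outermost edges of the pooled lists. Of these gaps, 231 were up to 250 bp long, 260 were over 250 and up to 500 bp, 308 reached up to 1000 bp, 424 up to 2000 bp and 351 up to 3000 bp. Counted in steps of 250 bp, the number was highest at 250 to 500 bp with 260 gaps, lay at 144 or 145 per step between 750 and 1250 bp and at 82 to 94 per step between 2000 and 3000 bp. The limit itself fell where the counts were flat, with 87 gaps in the last step inside it and 84 in the first step outside.

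**Figure D1:**
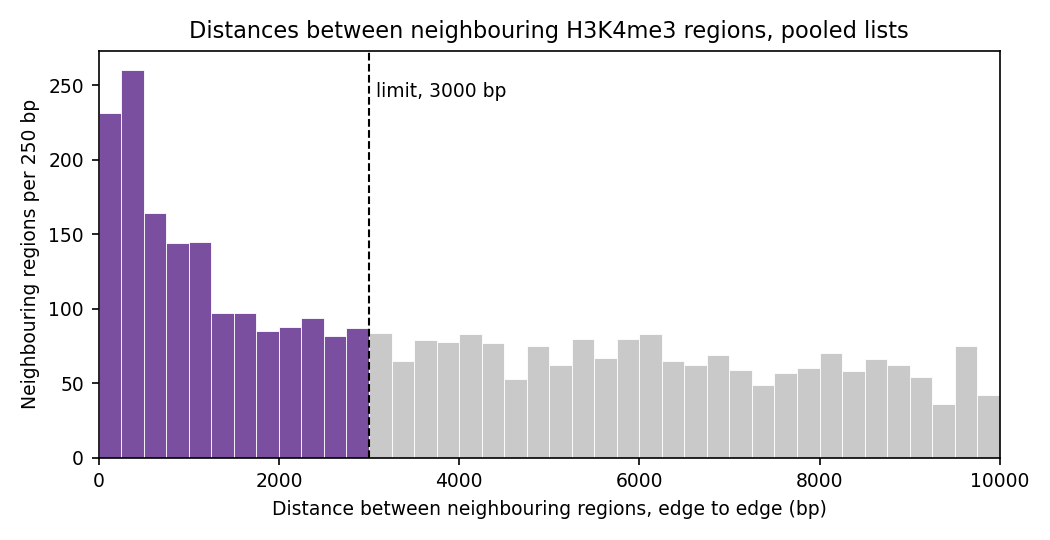
Number of neighbouring autosomal regions (y axis, per 250 bp) by their distance from edge to edge in the pooled lists (x axis, bp), with the 3000-bp limit dashed and the gaps inside it in purple. The counts fall from 260 at 250 to 500 bp to 87 just inside the limit and 84 just outside it.

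By the rule, each gap between members parted the regions in all 3 lists, but its length differed. The median gap between members was 1080, 1387 and 1296 bp in replicates 1, 2 and 3, and each was longer than the pooled 979 bp, since pooling takes the edges nearest to each other. Of the 1574 gaps, 914 were shortest in the list of replicate 1, 453 in that of replicate 2 and 207 in that of replicate 3. Replicate 1 is also the list with the widest peaks, with a median peak width of 2091 bp against 1933 and 1780 bp. In 1330 of the 1574 gaps (84.5%) the peaks of each list were also 3000 bp or less apart, while 38, 206 and 172 gaps were longer than the limit in the lists of replicates 1, 2 and 3, respectively. Within the 1211 pairs the longest and the shortest of the 3 gaps differed by a median of 292 bp, and Pearson's r of the gap length was 0.870 for replicates 1 against 2, 0.886 for 1 against 3 and 0.923 for 2 against 3. These coefficients are across pairs, which are no replicates of the embryos, and the limit on the gap restricts them.

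Edges that faced the gap moved less between lists than the outer edges of the same pairs. The range of an edge over the 3 lists had a median of 156 bp for the 2422 edges facing the gap, 323 bp for the 2422 outer edges and 298 bp for both edges of the other regions. An edge facing the gap could not move far without joining the neighbouring region, which would have removed the pair, so part of this difference is set by the rule.

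Beside the 1211 pairs, which are separate in all 3 lists by definition, there were regions that only some lists divided. Among all 16231 regions, 1387 (8.55%) were called as a single peak in at least 1 list and as 2 or more peaks in another, and joining the lists turned each into 1 region. Of the 1387, 252, 594 and 926 were divided in replicates 1, 2 and 3, the last being the list with the narrowest peaks. The gaps inside them were shorter than those between members, with medians of 111, 180 and 144 bp in replicates 1, 2 and 3. Only 62 regions were called as 2 or more peaks in each list. Closely spaced regions were themselves mostly undivided: 2663 of the 2942 (90.5%) were a single peak in each list, against a background of 91.1% of all regions.

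Closely spaced regions scored lower than the other regions in each of the 3 lists. A region's score is the highest score that the authors' peak caller gave to its peaks, and it was turned into a percentile among all peaks of the same list, since the score itself moves with the depth of a library. Stronger and weaker refer to this score throughout, and the amount of the mark was not measured. The median member had scores of 1006, 488 and 896 in replicates 1, 2 and 3, at percentiles 56.3, 48.5 and 55.6. For the other 13289 regions the median scores were 1570, 806 and 1397, at percentiles 64.4, 57.9 and 63.8. The difference of members minus others was -8.18, -9.43 and -8.20 percentile points, with a mean of -8.60 ± 0.719 points (SD, n = 3 replicates). The sign was the same in all 3 lists, which score the same regions, so the SD covers only the spread between lists.

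At the top of the scale, the score reaches a value of 3100 that many of the strongest peaks share. Members at or above it numbered 483, 133 and 406 (16.4%, 4.52% and 13.8%) in replicates 1, 2 and 3, against a background of 24.6%, 7.71% and 21.1% of all regions in the same lists. The weakest regions were not more common among them in replicates 1 and 3: scores under 100 were held by 84, 371 and 129 members in replicates 1, 2 and 3 (2.86%, 12.6% and 4.38%) and by 3.49%, 11.6% and 4.61% of the other regions. The lower medians therefore went along with fewer regions of the highest scores.

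Members were also narrower. Their peaks covered a median of 2216, 1821 and 1894 bp in replicates 1, 2 and 3, and those of the other regions covered 2579, 2200 and 2295 bp. The difference was -381 ± 19.1 bp (members minus others, SD, n = 3 replicates). Close neighbours bridged by a peak of any list were joined into a wider region, so the rule favours this direction. How much of the difference comes from the joining was not tested. In the pooled lists the members had a median width of 2325 bp, from 443 to 17893 bp, and the other regions one of 2710 bp, from 514 to 23669 bp. Regions under 1 kb made up 3.57% of the members and 1.48% of the others, whereas regions of 5 kb or more made up 8.43% and 9.99%. The covered bp of a region varied between the 3 lists to a like degree in both sets, with a median coefficient of variation of 12.8% in members and 12.0% in the others.

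Both score and width rose with the distance to the nearest region up to 100 kb and were lower again beyond it. Regions with a neighbour within 250 bp had a median score percentile of 51.4 ± 4.15 (SD, n = 3), those at 250 to 1000 bp one of 52.7 ± 4.67, and those at 1000 to 3000 bp one of 54.7 ± 4.19. Just past the limit, at 3 to 10 kb, the value was 58.4 ± 3.57. It reached 66.0 ± 3.11 at 30 to 100 kb and fell to 56.8 ± 4.17 for the 2431 regions with no neighbour within 100 kb. The SDs hold the offset of replicate 2, which was the lowest in each class, while the order of the classes below 100 kb was the same in all 3 lists. The median covered bp followed, from 1790 ± 191 bp within 250 bp and 1801 ± 161 bp at 250 to 1000 bp to 2141 ± 234 bp at 1000 to 3000 bp and 2484 ± 213 bp at 30 to 100 kb. Replicate 1 departed from this order at the lowest end, with 2007 bp within 250 bp and 1987 bp at 250 to 1000 bp. The lower score of closely spaced regions was thus part of a gradient rather than a step at 3000 bp.

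**Figure D2:**
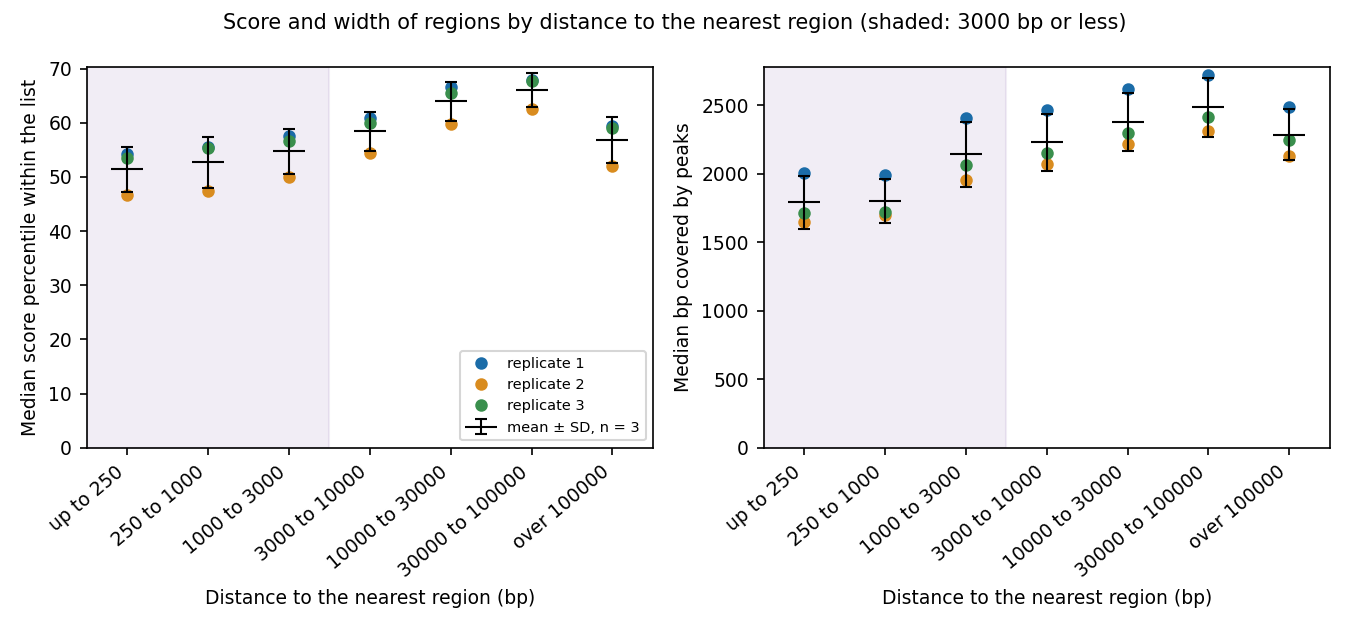
Median score percentile within the list (left, y axis) and median bp covered by peaks (right, y axis) of autosomal regions by the distance to their nearest region (x axis, bp), with a point per replicate and the mean ± SD of the 3 in black; distances of 3000 bp or less are shaded. The mean percentile rises from 51.4 within 250 bp to 66.0 at 30 to 100 kb and is 56.8 beyond 100 kb.

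The difference in score held on most chromosomes. Within chromosomes, the median percentile of the members was below that of the other regions on 26, 27 and 28 of the 29 autosomes in replicates 1, 2 and 3. Chromosome 14 was the exception in all 3 lists, with members above the others by 2.66, 1.38 and 3.68 points. On chromosome 23, which carries the major histocompatibility complex of cattle and the highest share of closely spaced regions, the differences were 0.933, -2.18 and -0.385 points, and on chromosome 24 they were 1.71, 2.10 and -1.05 points. Members of larger groups were not stronger: the median percentiles in groups of 2 were 56.6, 48.9 and 56.2 in replicates 1, 2 and 3, and those in groups of 4 or more were 51.8, 42.1 and 51.3.

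Within pairs, the scores were mostly unequal. The regions of a pair differed by a median of 19.5, 23.5 and 20.1 percentile points in replicates 1, 2 and 3, and the mean of these was 21.0 ± 2.16 (SD, n = 3). A difference of 20 points or more was found in 48.5%, 57.0% and 50.5% of the pairs, and one of under 5 points in 15.5%, 11.6% and 13.8%. Neighbouring regions 3 to 10 kb apart differed by a like amount, 21.1 ± 1.68 points. Those 10 to 100 kb apart differed by 22.9 ± 2.07 and those over 100 kb apart by 24.8 ± 2.00. The regions of a pair were thus about as unequal as regions 3 to 10 kb apart. In each list they were somewhat less unequal than regions over 10 kb apart. Inside the limit, the scores were not more alike at shorter gaps. Neighbouring regions within 250 bp, in groups of any size, differed by 20.3, 25.1 and 23.3 points in replicates 1, 2 and 3. Those 2000 to 3000 bp apart differed by 18.3, 22.3 and 19.4 points. The mean within 250 bp, 22.9 ± 2.45 points, was like that at 10 to 100 kb.

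The same region of a pair was the stronger in all 3 replicates in 1003 of the 1211 pairs, 82.8% (95% Wilson interval 80.6 to 84.8%), close to the background of 80.7% of all neighbouring regions at any distance. Without pairs that had equal scores in any list it was 85.5%, against a background of 86.7%, so the pairs were above the background by the first count and below it by the second. Equal scores in at least 1 list were found in 38 pairs (3.14%, against a background of 6.94% of all neighbouring regions), and in 170 others the order differed between lists. In these 170 pairs the regions differed little, by medians of 4.11, 6.39 and 5.81 points in replicates 1, 2 and 3, against 24.8, 27.9 and 24.7 points where the order was the same. When the stronger region was named from replicate 2 alone, it lay at a median percentile of 69.5 in replicate 1 and 69.7 in replicate 3, and its partner at 45.6 and 44.5. The order named in replicate 2 was kept by 87.3% of these pairs in replicate 1 and 88.9% in replicate 3. Pearson's r of the difference between left and right region was 0.932 for replicates 1 against 2, 0.944 for 1 against 3 and 0.943 for 2 against 3, across 1211 pairs that share the pooled edges. Neither side was preferred along the chromosome: the left region, with the lower coordinates, was the stronger in 492 of the 1003 pairs (49.1%, 95% Wilson interval 46.0 to 52.1%).

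**Figure D3:**
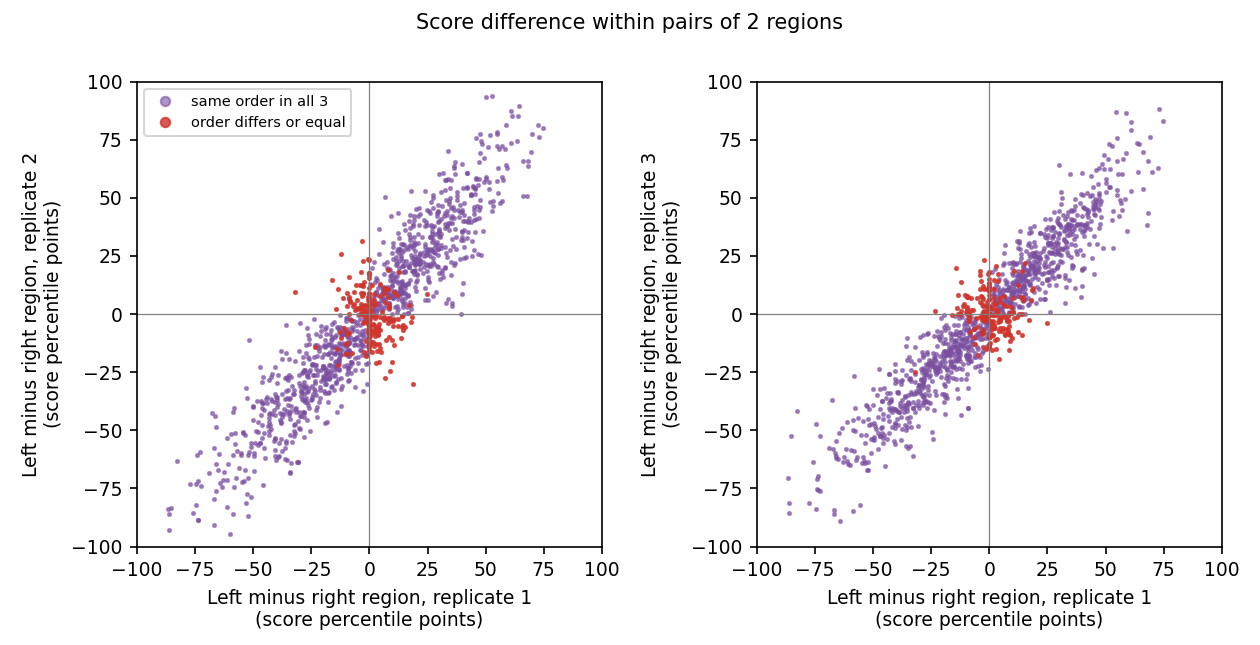
Score of the left minus the right region of each of the 1211 pairs, in percentile points, in replicate 2 (left panel, y axis) and replicate 3 (right panel, y axis) against replicate 1 (x axes). The 1003 pairs with the same order in all 3 replicates are purple and have the same sign on both axes; the others are red and gather near 0.

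The stronger region was mostly the wider as well. It covered more bp than its partner in 947, 970 and 972 of the 1211 pairs in replicates 1, 2 and 3 (78.2%, 80.1% and 80.3%), where the background over all neighbouring regions was 75.8%, 81.8% and 78.8%. The wider region covered a median of 1.57, 1.59 and 1.59 times the bp of the narrower. Both orders were the same in all 3 lists in 835 pairs, and in 770 of them (92.2%) the stronger region was the wider, while in 65 it was the narrower, against a background of 92.3% of all neighbouring regions with fixed orders. A pair whose stronger region was also the wider was therefore the usual form, as it was for neighbouring regions in general.

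Pairs in which both regions reached 3100 were few. They numbered 37, 4 and 27 in replicates 1, 2 and 3 (3.06%, 0.330% and 2.23%), against a background of 7.13%, 0.784% and 5.28% of all neighbouring regions. Among neighbours within 250 bp the share was 1.30%, 0% and 1.73% in replicates 1, 2 and 3, and among those 2000 to 3000 bp apart it was 5.13%, 0.570% and 2.85%. The 0 of 231 neighbours in replicate 2 allows a share of up to 1.30%, for counting error only. In replicates 1 and 2 the share rose from class to class, with 2.29% and 0.176% at 250 to 1000 bp and 3.77% and 0.236% at 1000 to 2000 bp. In replicate 3 it first fell, to 1.41%, and was 2.12% at 1000 to 2000 bp. Since the score gives no order among peaks at 3100, differences within such pairs could not be read. Taken singly, the regions of pairs were also less often at or above 3100, in 16.6%, 4.54% and 14.1% in replicates 1, 2 and 3. The background was 24.6%, 7.71% and 21.1% of all regions. Whether pairs with both at 3100 were fewer than this alone would give was not tested.

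In 4 pairs both regions stood at 3100 in all 3 lists (0.330%, against a background of 0.784% of all neighbouring regions), where the score gives no order. These were at chr5:109575215-109589350, chr7:13892747-13906410, chr24:34570122-34586602 and chr28:13903829-13922197 (UMD 3.1.1). All 8 regions were wide for this set, from 4154 to 8852 bp in the pooled lists. The pair on chromosome 24 was the tightest, with gaps of 632, 560 and 669 bp in replicates 1, 2 and 3 between regions of 8228 and 7693 bp. On chromosome 28 the gap was 2436 bp in replicate 1 but 6568 bp in replicate 2 and 3581 bp in replicate 3, so that this pair was closely spaced by replicate 1 and the pooled lists only. The next pair by the lower of both percentiles lay on chromosome 1 from 46409272 to 46422168, where a single score, that of the left region in replicate 2, was under 3100, at 3016.

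At the other extreme, a region at the top of the scale stood beside one near the lowest score. The largest mean difference, 86.7 ± 5.88 percentile points (SD, n = 3), was found on chromosome 12, where the region from 32855719 to 32857495 had scores of 57.3, 55.5 and 69.5 in replicates 1, 2 and 3 and that from 32858205 to 32861161 had 3100 in each. On chromosome 16, the region from 40879113 to 40881154 had scores of 57.1, 69.6 and 59.9 and its neighbour from 40882057 to 40887378 had 3100 in each list. The weak region was in both cases the narrower, covering 1306, 1276 and 1336 bp on chromosome 12 and 1427, 737 and 775 bp on chromosome 16. The next in order lay on chromosome 3 (103897972 to 103907575), chromosome 19 (10349394 to 10356649) and chromosome 5 (65657616 to 65666650), with mean differences of 80.6 ± 12.2, 80.4 ± 8.53 and 80.3 ± 4.96 points. In all 5 pairs the weak region was on the left and 709 to 1486 bp from its neighbour.

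The shortest gaps were a few bp in the pooled lists and longer in most single lists. On chromosome 18, the region from 59194881 to 59196428 was separated by 1 bp from that from 59196430 to 59197869, while the peaks were 21, 4 and 131 bp apart in replicates 1, 2 and 3. Its left region scored 1157, 832 and 1055 in replicates 1, 2 and 3, and its right region 383, 87.5 and 208, so the adjoining regions differed by 28.7 ± 12.9 percentile points. The 2-bp gap on chromosome 22 (54134618 to 54143301) was 2 bp in replicate 1 but 1299 and 898 bp in replicates 2 and 3. The following pairs lay on chromosome 1 (50330657 to 50334900), chromosome 22 (48843719 to 48849468) and chromosome 15 (59219261 to 59225507), with pooled gaps of 3, 3 and 4 bp. Only the second of these held regions of like score, which differed by 4.01 ± 3.31 points. In such pairs the gap depended on which list reached farthest, while by the rule each list called the regions apart.

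By summed width of the regions, the first pair held the widest of all members and a neighbour of ordinary width. On chromosome 18 a region of 17893 bp, from 61142144 to 61160036, was followed after 336 bp by 1 of 2911 bp that ended at 61163283. The wide region had scores of 3100 in all 3 lists and its neighbour 352, 274 and 312. On chromosome 25, a region of 8926 bp with scores of 1010, 163 and 243 lay 981 bp before 1 of 11811 bp with 3100 in each list (38811842 to 38833559). The third, on chromosome 15 from 82282215 to 82302586, was made of a region of 10539 bp at 3100 in all lists and 1 of 9477 bp with scores of 3100, 1721 and 3100, separated by 356, 940 and 1237 bp in replicates 1, 2 and 3. Of these 3 pairs, it was the one with regions near the top of the scale on both sides.

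Around the limit, pairs did not stand apart from those beyond it. The last pairs inside had gaps of 2993 bp on chromosome 12 (82743673 to 82750787), 2992 bp on chromosome 7 (45198271 to 45207739) and 2985 bp on chromosome 9 (105670650 to 105680167). The first outside had gaps of 3001 bp on chromosome 2 (20862322 to 20868637) and 3006 bp on chromosome 25 (39319024 to 39326362) and on chromosome 29 (41775120 to 41784972). In replicate 1 the regions beside the gaps inside scored between 266 and 2573, and those beside the gaps outside between 71.0 and 2438. The region at 71.0, on chromosome 2, was itself a member through another neighbour 467 bp away. The next lowest score outside was 225. Both sides of the limit held strong and weak regions.

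In groups of 3, the middle region took no fixed place. It had the lowest score of the group in 39, 42 and 41 of the 121 groups in replicates 1, 2 and 3, the highest in 43, 45 and 43, and a place between or equal to its neighbours in the others. It was lowest in all 3 lists in 31 groups, highest in all 3 in 33 and between in all 3 in 22.

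The largest group held 8 regions over 39405 bp of chromosome 25, from 2599227 to 2638631. Along the chromosome, the scores in replicate 1 were 1156, 872, 445, 328, 677, 2855, 2491 and 77.5. In replicate 2 they were 454, 467, 161, 125, 207, 1467, 1753 and 72.5, and in replicate 3 they were 547, 531, 231, 304, 343, 2291, 1528 and 59.9. The sixth and the seventh region were the strongest in each list and the last was the weakest, and Spearman's rho over the 8 regions was 0.952 for replicates 1 against 2, 0.976 for 1 against 3 and 0.929 for 2 against 3. The sixth region was the widest as well, with 8769 bp in the pooled lists, and was called as 2 peaks in replicates 1 and 3. Gaps within the group ranged from 446 to 2587 bp.

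**Figure D4:**
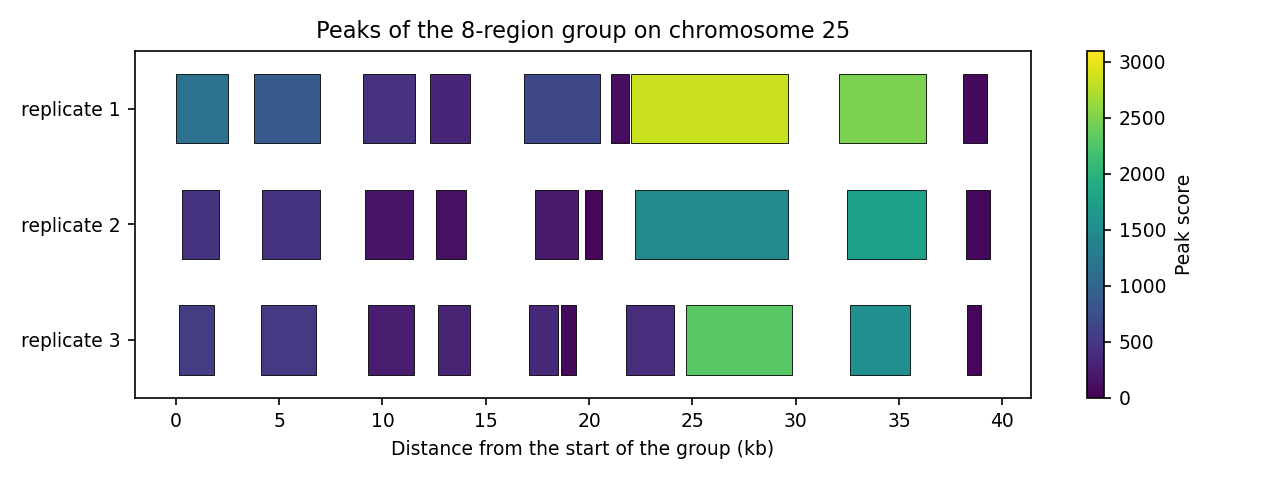
Peaks of the 8-region group on chromosome 25 in each replicate (rows), by distance from the start of the group (x axis, kb), coloured by peak score. The strongest peaks lie at the sixth and the seventh region in all 3 replicates, where scores reach 2855, 1753 and 2291 in replicates 1, 2 and 3.

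Of the 9 groups with 5 regions, 3 lay close together on chromosome 23. They spanned 31287744 to 31315250, 31434137 to 31465516 and 31478690 to 31504072, and were the widest of the 9 in summed region width. The whole stretch from 31287744 to 31504072, 216 kb long, held 21 regions, and 18 of these were closely spaced and fell into 4 groups. Scores of these 18 regions ranged from 528 to 3128, from 75.4 to 3100 and from 288 to 3100 in replicates 1, 2 and 3. Their peaks covered medians of 4556, 3234 and 3725 bp, above the medians of all members in each list. Groups of 5 were ranked by summed region width, so this direction was favoured by the choice. The next in summed width lay on chromosome 7 from 14201811 to 14221384. In it the first 3 regions had scores from 2169 to 2953 in replicate 1 and the last pair 544 and 360, and this division held in replicates 2 and 3, with 616 to 1591 against 150 and 109, and 1595 to 2807 against 167 and 256.

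Chromosome 23 had the largest share of closely spaced regions. They were 178 of its 561 regions, 31.7% (95% Wilson interval 28.0 to 35.7%), and without the 216-kb stretch the share was 29.6%. Chromosomes 25, 12, 24 and 19 followed with 25.1%, 23.3%, 22.8% and 22.6%, and chromosome 18 with 20.7%. The lowest shares were those of chromosomes 1, 10, 6 and 27, at 9.75%, 12.0%, 12.4% and 13.0%, with 18.1% over all autosomes. Members come in linked groups, so intervals over single regions are too narrow, and no difference between chromosomes was tested. The share went with the density of regions only in part: across the 29 autosomes Pearson's r with the number of regions per Mb was 0.568, a description over chromosomes that share the same libraries. Chromosomes 18 and 19 carried 15.2 and 15.1 regions per Mb and chromosome 23 carried 10.7, while chromosome 12 had a share of 23.3% at 3.72 regions per Mb, below the 3.82 of chromosome 1.

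**Figure D5:**
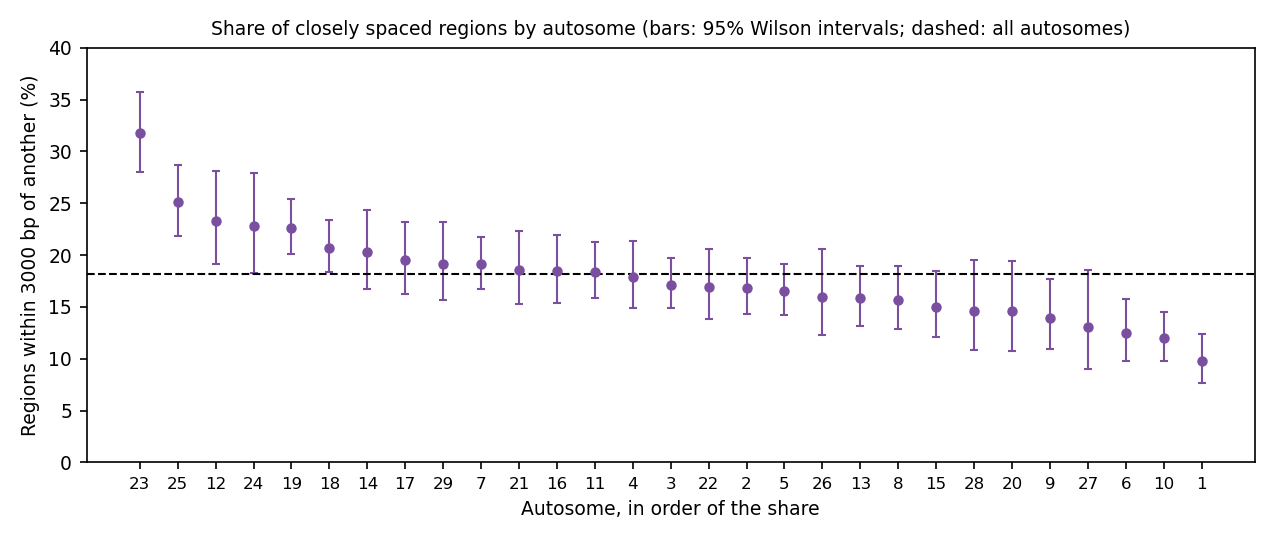
Share of autosomal regions that lay within 3000 bp of another (y axis, %) for each autosome (x axis, in order of the share), with 95% Wilson intervals, which treat regions as independent and are too narrow for regions that come in groups, and the share over all autosomes dashed. Chromosome 23 stands highest at 31.7% and chromosome 1 lowest at 9.75%, against 18.1% over all autosomes.

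Groups lay nearer to other regions than the remaining regions did. From the ends of a group to the nearest region outside it the median distance was 20469 bp over 1368 groups, and for the other 13289 regions the nearest region was a median of 29043 bp away.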

How the data were processed

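H3K4me3 peak lists of 3 blastocyst replicates were analysed. The authors aligned 51-base single-end reads to UMD 3.1.1 (bosTau8, without scaffolds) with Bowtie, version 1.2.3 per the labels, removed duplicates with Picard and ran MACS for each replicate on the H3K4me3 library and its input, whose version and threshold are not given in the sources used here. They deposited the start, end and score of each peak. The scale of the score was inferred from its values as likely that of a log-transformed p-value. The inputs were not analysed here on their own.

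Pooling and joining used Python 3.11.15 with NumPy 2.4.6 and pandas 2.3.3, Wilson intervals came from SciPy 1.17.1 and plots from Matplotlib 3.10.9. The joining was checked with bedtools 2.31.1, and joining and chaining were tested on simulated data. A region took the highest score of its peaks in a replicate, as a mid-rank percentile of that list, and the bp they covered as its width. Pairs are groups of 2 regions, and distance classes hold their upper bound. Means are given ± SD over the 3 replicates, and Wilson intervals cover counting error only. No test was run, since peak positions chose the regions, and these and all rules were chosen with earlier results of these data known. The regions named are the 5 largest groups, the 5 pairs highest in the lower percentile, the 5 with the largest difference in a constant order, the 5 shortest gaps, the 3 widest pairs and the 3 gaps on each side of the limit. Alternatives covered the limit, joining, a score filter, the replicates, score and width measures and chromosome X. For densities per Mb, the last peak of a chromosome stood for its end.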

Additional observations from a re-analysis of the deposited data

Results flagged for a closer look

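Chromosome X was not part of the definition, yet closely spaced regions were found there. Of its 620 regions with a peak in all 3 replicates, 77 lay within 3000 bp of another, in 35 groups, which is 12.4% (95% Wilson interval 10.1 to 15.2%) beside 18.1% on the autosomes. The difference was not tested. Their median score percentiles were 50.1, 45.0 and 45.7 in replicates 1, 2 and 3 and their median width in the pooled lists was 2012 bp. They were flagged because the main comparison left them out.

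Peaks called in only 1 or 2 replicates were also set aside, and 28 of the 7630 autosomal regions of this kind (0.367%) lay inside the gaps between members. How many would lie there by the length of the gaps was not computed. They filled 28 of the 1574 gaps (1.78%). Of the 28, 20 were called in a single list and 8 in 2 lists, and 14, 3 and 19 of them were called in replicates 1, 2 and 3. Their median width was 801 bp, and their median scores of 93.5, 82.8 and 80.3 in replicates 1, 2 and 3 lay near the lowest scores of the lists. The gaps that held them were longer, with a median of 2411 bp against 951 bp for the empty ones. A gap had to be longer than the region it held, so this direction was favoured in advance.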

How the results depend on the processing

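The members scored lower than the other regions in each of the 10 alternatives tried on that difference and were narrower in each of the 8 tried on theirs. Of the 121 values recomputed in all, 42 moved beyond their error or by over 1.5 times. With limits of 1000, 2000 and 5000 bp the share of members was 9.55%, 14.4% and 24.1%, the median gap 412, 704 and 1595 bp, the difference in covered bp -542, -446 and -329 bp, and the gaps holding a partly called region 0.125%, 0.327% and 3.92%, which follows from the limit. The count of members became 1550 and that of groups 751 at 1000 bp. Joining peaks across up to 500 bp gave a share of 13.1%, a median gap of 1460 bp, differences of -298 bp and -7.85 percentile points, and 0.637% of gaps with a partly called region. Without peaks that scored under 100, these were 15.7% for the share, -413 bp, -11.0 points and 1.03%, the median percentile of members was 48.6, and the stronger region was the wider in 76.5% of pairs. Percentiles taken among the regions gave 41.8 ± 0.130 for members, a difference from the others of -10.5 ± 0.138 and 24.6 ± 0.443 points within pairs. Among all peaks of a list these SDs were 4.34, 0.719 and 2.16, so the SDs of percentiles depend on the reference as well. By pooled width, the stronger region was the wider in 77.5%. Peaks of each list taken alone gave a mean of 5346 ± 1054 members and 26.0%. Leaving out pairs with equal scores, chosen after seeing the data, gave a constant order in 85.5%, now below the background of 86.7% of all neighbouring regions treated alike.

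Across the fits without 1 replicate, the share of members ranged from 18.7 to 21.6%, the difference in covered bp from -405 to -345 bp, that in percentile from -9.42 to -8.27, the constant order from 87.4 to 88.9% of pairs, which then needs only 2 lists to be alike, and the stronger region was the wider in 79.9 to 81.1%. The number of members ranged from 3131 to 3972, the highest without replicate 2.

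No paired analysis was possible because the input libraries that share the replicate numbers have no list of their own. Depth per peak is unknown, so a region absent from a list was not detected there rather than absent, and pooled gaps of a few bp can join the edges of different lists.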
